A study of Mus musculus with 60 samples.

Results

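Transcripts of 30 genes of cholesterol synthesis and sterol handling were examined in the hippocampus of R6/1 mice, a transgenic model of Huntington's disease, and of wild-type (WT) controls. The genes were chosen by name, and all 30 are among the 24508 gene symbols of the expression table. Of these, 29 had a mean of at least 0.5 RPKM (reads per kilobase of transcript, scaled for sequencing depth) over all libraries and were tested together with the other genes, 14446 in all. Hmgcs1, the synthase that makes the direct precursor of mevalonate, is listed at 0 in all 18 libraries, as are 3717 symbols of the table, and was not tested. This 0 is not read as absence of expression, since the annotation and counting used are not given in the sources. In R6/1 hippocampus 17 of the 29 tested genes were lower and 7 were higher at an adjusted p under 0.05 (limma). Among all tested genes 48.3% were called in either direction, 23.5% lower and 24.8% higher. The share of sterol genes called higher was thus near that of all tested genes. Of the 17 that were lower, 13 encode enzymes of the synthesis route, which account for 17 of the 29 tested genes.

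Brain cholesterol is made within the brain, since lipoproteins of the blood do not cross the blood-brain barrier. The mevalonate pathway turns acetyl-CoA into isoprene units, prenyl and squalene enzymes join these into squalene, and a last series of enzymes closes the rings and trims lanosterol to cholesterol. Transcription of these genes is driven mainly by SREBP-2, a membrane-bound factor that SCAP carries to the Golgi for cleavage when sterols are low and that INSIG proteins hold back when sterols are plentiful. Oxysterols activate the liver X receptors (LXR), which drive genes of cholesterol efflux, and oligodendrocytes and astrocytes are the main makers of cholesterol in the adult brain, the former for myelin.

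The RNA came from mice of 30 weeks on a mixed CBA and C57BL/6 background, with 9 biological replicates of each genotype, 1 library per replicate. R6/1 mice carry, beside their own huntingtin genes, a transgene with the first exon of human huntingtin and an expanded CAG repeat under the human promoter, and WT mice lack it. Lamin B1 ChIP-seq, read here only as 1 domain list per genotype, was made on 3 pools of 5 mice for each genotype. The ATAC-seq libraries were not analysed here. Between 12299434 and 16736544 reads per library fell on genes, and between 100 and 3706 of them on each tested sterol gene.

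Over all 14446 tested genes, 23.5% were lower and 24.8% were higher in R6/1 by the same rule, so a call by itself is common in this comparison. When libraries were scaled to their own totals of reads, 2526 genes were lower and 5110 higher, in place of 3394 and 3586. Markers of hippocampal neurons were present in both genotypes. Slc17a7, the vesicular glutamate transporter of cortical and hippocampal excitatory neurons, had a mean of 605 ± 53.0 RPKM in WT (SD, n = 9) against 440 ± 35.0 RPKM in R6/1 (SD, n = 9). Prox1, a factor of dentate granule neurons, had means of 14.8 ± 3.32 and 10.5 ± 1.04 RPKM. A pair of library sets stood apart from the rest without regard to genotype. The 7 choroid plexus markers summed to between 23.1 and 58.4 RPKM in 4 WT and 5 R6/1 libraries and to between 7.28 and 15.7 RPKM in the other 9. Pttg1 stood between 0.146 and 0.291 RPKM in 3 WT and 1 R6/1 libraries and between 4.45 and 11.0 RPKM in the other 14. Without the former set 15 sterol genes were lower and 6 higher, and without the latter 16 and 6. The fit without the former set held only 5 WT and 4 R6/1 libraries. It called 2455 genes lower and 2357 higher over all genes, in place of 3394 and 3586. Of the sterol genes that lost their call in it, Sc5d moved from a log2 change of -0.25 to -0.02, Pmvk from -0.23 to -0.19 and Lss from 0.19 to 0.16. The part of the smaller number of libraries in calls lost in it, here and below, was not tested. In bulk tissue, fewer cells of a type and less RNA per cell cannot be told apart.

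Short sequence features were looked for at the starts of these genes. RefSeq promoter windows (assembly GRCm38.p6, 250 bases before to 50 after the start site) matched 25 of the 30 genes by symbol, with none for Fdps, Fdft1, Sqle, Stard4 and Abcg1. The letters CCAAT, the core that the factor NF-Y binds beside SREBP, stood on either strand in 20 of these 25 genes and in 15 of the 16 enzymes with a window, Ggps1 included and all but Acat2. It stood in at least 1 window of 41.1% of all genes in the table and in 37.4% of all 32851 windows. CCAAT was not confined to genes that fell in R6/1. It also stood at Mvk, Ggps1, Hsd17b7 and Ebp, which were not called, and at Lss, Srebf1 and Insig2, which were higher. The windows without it were those of Acat2 (lower), Mbtps2 (not called) and Scap, Mbtps1 and Abca1 (higher). GGGCGG, the core of an Sp1 site, stood in 22 of the 25 genes against 38.2% of all genes and 35.7% of all windows, and the 2 motifs can share G bases where they meet on opposite strands. These background shares cover all genes with a promoter window, whether or not their RNA was tested here. Shares over the tested genes alone were not computed, so the motifs are not read as particular to sterol genes. The sterol response element form TCACCCCAC stood only in the window of Hmgcs1 among these genes, and in 0.551% of all windows; TCACNCCAC, which includes it, gave the same single gene and 1.24%. The match nearest the start site is printed for the 6 genes with a CCAAT match and the largest decreases, with CCAAT in capitals, and for Hmgcs1 with its sterol response element in capitals. All are written 5′ to 3′, on the minus strand of the genome except for Hmgcs1, which is on the plus strand, and lie upstream of the start site.
Idi1, chr13:8885582-8885606: cggtcgccagCCAATggcaccttgg
Msmo1, chr8:64733619-64733643: gtggggcggaCCAATtacgacaggc
Insig1, chr5:28071186-28071210: gccgccggagCCAATgggaggaggg
Mvd, chr8:122443435-122443459: ggccagcgggCCAATcatatggcag
Dhcr7, chr7:143830155-143830179: tcacagacgaCCAATcggaagtgga
Cyp51, chr5:4104712-4104736: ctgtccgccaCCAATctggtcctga
Hmgcs1, chr13:119690204-119690232: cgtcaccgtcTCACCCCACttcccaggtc
In these windows the CCAAT of Idi1 ended 10 bases before the start site, that of Mvd 23, of Cyp51 25, of Dhcr7 45, of Msmo1 51 and of Insig1 212 bases before it. A match of letters describes the window and is no measure of binding.

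A different element stood in the windows of 4 genes, of which 2 were higher in R6/1. Abca1 and Srebf1 are known targets of LXR, which binds a direct repeat with 4 bases between the half-sites. The spaced form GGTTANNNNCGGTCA matched 4 of all 32851 windows on either strand: those of Abca1, Srebf1, Fasn and Prrg4. It was written down after the window of Abca1 had been seen, so its match there was fixed in advance. The count of windows is thus no measure of how rare the element is, and no other spaced form was searched for. The stretches of Abca1 and Srebf1 are given with the repeat and its spacer in capitals, on the plus strand of the genome.
Abca1, chr4:53159938-53159972: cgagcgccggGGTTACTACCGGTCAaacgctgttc
Srebf1, chr11:60210629-60210663: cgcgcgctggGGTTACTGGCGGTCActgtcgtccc
The repeat ended 53 bases before the start site of Abca1 and 168 before that of Srebf1. Fasn, the fatty acid synthase, did not pass the test in R6/1 (log2 change 0.00, limma adjusted p 0.951), and Prrg4 was below the level for testing at a mean of 0.406 RPKM.

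Synthesis enzymes were lower in R6/1 from the first isoprene steps to the last sterol reductase, while genes of SREBP control and of efflux moved in both directions. Of the 18 enzymes of cholesterol synthesis 17 were tested, and 13 were lower, 1 was higher and 3 did not pass. Their median log2 change (log2 of the ratio of R6/1 to WT, from RPKM + 0.5) was -0.34, against 0.00 over all tested genes. Among all 29 tested sterol genes the median was -0.25. The libraries of the 2 genotypes did not overlap for 10 sterol genes lower in R6/1 and for 1 higher, shares to be read beside 6.38% and 5.5% of all tested genes. A decrease of at least 0.5 on the log2 scale that passed the test, found in 6.28% of all tested genes, was reached by Idi1, Msmo1, Insig1, Mvd, Dhcr7, Cyp51, Stard4, Sqle and Fdft1. The matching increase, found in 2.06%, was reached by Abca1 alone. In the authors' deposited table of the comparison, 17 of these genes were lower and 7 higher at an adjusted p under 0.05, beside 20.4% and 20.0% of all genes given one there.

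**Figure D1:**
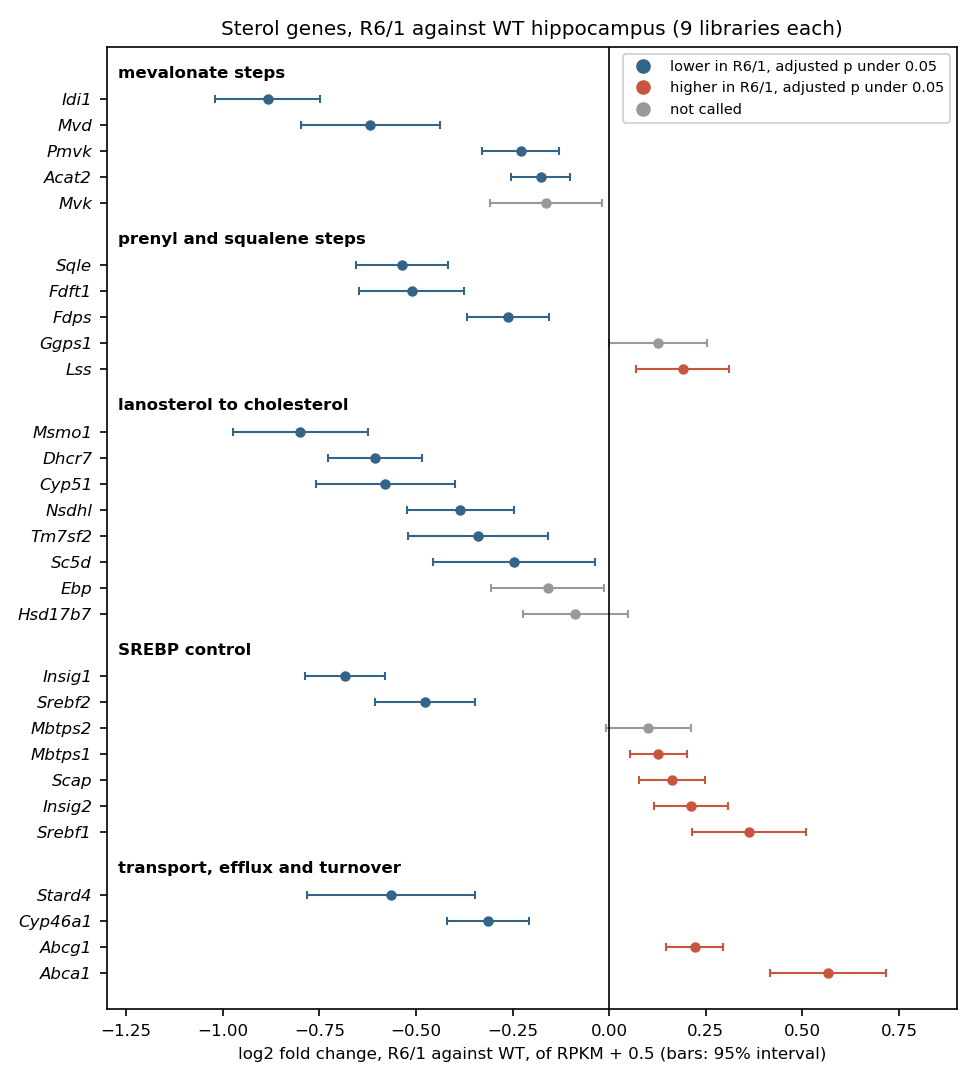
Log2 fold change of RPKM + 0.5 in R6/1 against WT (x axis) for the 29 tested sterol genes, grouped by role, with 95% intervals from limma over 9 libraries per genotype; blue marks genes lower and red genes higher at an adjusted p under 0.05, grey the others. The synthesis enzymes lie mostly left of 0, from -0.88 for Idi1 to 0.19 for Lss, while SREBP control and transport genes lie on both sides.

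The mevalonate steps held the largest decrease of all 30 genes. Idi1, the isomerase that converts isopentenyl diphosphate into its reactive partner (build NCBIM37, chr13:8884852-8891641, plus strand), ranged in WT from 16.4 to 23.3 RPKM with a median of 18.7 and a mean of 19.2 ± 2.08 RPKM (SD, n = 9). In R6/1 it ranged from 8.98 to 12.5 RPKM with a median of 10.2 and a mean of 10.2 ± 1.08 RPKM. Every R6/1 library lay below every WT library, and Idi1 fell by 0.88 on the log2 scale (SE 0.065, limma adjusted p 1.62e-09), a change of -45.8%. Mvd, the decarboxylase that makes isopentenyl diphosphate (chr8:124957496-124967322, minus strand), stood between 5.87 and 9.37 RPKM in WT (median 7.67, mean 7.70 ± 1.06) and between 3.90 and 6.22 RPKM in R6/1 (median 4.78, mean 4.85 ± 0.75). In 8 of 9 R6/1 libraries Mvd was below the lowest WT library, and it fell by 0.62 on the log2 scale (SE 0.087, limma adjusted p 7.67e-06). Pmvk, the kinase that adds the next phosphate to phosphomevalonate, spanned 14.4 to 16.8 RPKM in WT (median 15.3, mean 15.3 ± 0.78) and 11.1 to 14.3 RPKM in R6/1 (median 13.2, mean 13.0 ± 1.13). These ranges did not overlap, and the log2 change was -0.23 (SE 0.048, limma adjusted p 0.000543), which did not pass without the 9 libraries richer in choroid plexus markers (-0.19, limma adjusted p 0.0616). Acat2, the cytosolic thiolase that starts the route, went from 17.9 to 20.5 RPKM in WT (median 18.6, mean 18.7 ± 0.896) and from 15.1 to 18.1 RPKM in R6/1 (median 16.2, mean 16.5 ± 0.875). Its log2 change of -0.18 (SE 0.037, limma adjusted p 0.00048) was small, but 8 of 9 R6/1 libraries lay below the WT minimum. Mvk, the mevalonate kinase, did not pass the test, at 8.17 to 10.2 RPKM in WT and 6.88 to 10.1 RPKM in R6/1. The log2 change of Mvk was -0.16 with a 95% interval from -0.31 to -0.02 (limma adjusted p 0.0582), and it passed when any one of WT replicates 1 and 7 or R6/1 replicates 1, 2 and 6 was left out, at limma adjusted p between 0.0114 and 0.0492.

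The steps that join isoprenes into squalene were lower on the branch to sterols. Sqle, the squalene epoxidase (chr15:59146632-59162747, plus strand), ranged from 20.1 to 27.3 RPKM in WT (median 23.4, mean 23.7 ± 2.25) and from 14.3 to 18.7 RPKM in R6/1 (median 15.9, mean 16.2 ± 1.37). Fdft1, the squalene synthase and first enzyme committed to sterols (chr14:63763990-63796630, minus strand), ranged from 17.2 to 23.9 RPKM in WT (median 19.7, mean 20.2 ± 2.22) and from 11.5 to 15.6 RPKM in R6/1 (median 14.0, mean 14.0 ± 1.34). Neither gene had an R6/1 library within its WT range. Sqle fell by 0.54 (SE 0.057, limma adjusted p 2.44e-07) and Fdft1 by 0.51 on the log2 scale (SE 0.065, limma adjusted p 2.43e-06). Fdps, which makes farnesyl diphosphate, stood between 25.9 and 37.3 RPKM in WT (median 31.2, mean 31.1 ± 2.96) and between 23.4 and 27.6 RPKM in R6/1 (median 26.0, mean 25.8 ± 1.48). The genotypes overlapped for Fdps, with 4 of 9 R6/1 libraries below the WT minimum and a log2 change of -0.26 (SE 0.051, limma adjusted p 0.000271).

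The other 2 genes of this group did not fall. Lss, the cyclase that folds epoxidised squalene into lanosterol (chr10:75994333-76019883, plus strand), was the single synthesis enzyme called higher, at 4.86 to 7.37 RPKM in WT (median 6.14, mean 6.15 ± 0.651) and 6.47 to 7.90 RPKM in R6/1 (median 7.11, mean 7.06 ± 0.462). The genotypes overlapped, with 7 of 9 WT libraries below the R6/1 minimum and 2 of 9 R6/1 libraries above the WT maximum, and the log2 change was 0.19 (SE 0.057, limma adjusted p 0.00958). The call on Lss was lost without the libraries richer in choroid plexus markers (0.16, limma adjusted p 0.112) and without those with little Pttg1 (0.14, limma adjusted p 0.0523). Ggps1, which makes the geranylgeranyl diphosphate of protein prenylation rather than a sterol precursor, ranged from 9.86 to 13.5 RPKM in WT and from 11.1 to 14.8 RPKM in R6/1. It did not pass the test (log2 change 0.13, limma adjusted p 0.0942) but did when libraries were scaled to their own totals (0.20, limma adjusted p 0.0105), and also without WT replicate 6 (0.0421), R6/1 replicate 1 (0.0491) or R6/1 replicate 6 (0.048). Exons of Fdft1, Lss and Ggps1 overlap those of a gene on the opposite strand, Ctsb, 4930483K19Rik and Arid4b respectively, and the strand setting of the counting is not given in the sources used here.

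From lanosterol to cholesterol, 6 of 8 enzymes were lower and none was higher. Msmo1, the methyl oxidase that takes off the methyl groups at carbon C-4 (listed as Sc4mol in the annotation, chr8:67196936-67212589, minus strand), was the most abundant enzyme of the route in WT, though not in R6/1, where Fdps had a higher mean. It ranged from 35.3 to 52.6 RPKM in WT (median 43.8, mean 43.6 ± 5.12). In R6/1 it ranged from 20.7 to 30.9 RPKM (median 25.0, mean 25.0 ± 3.85), below every WT library, and it fell by 0.80 on the log2 scale (SE 0.084, limma adjusted p 2.09e-07). Dhcr7, the reductase of the last step to cholesterol (chr7:151009050-151034315, plus strand), stood between 11.5 and 15.7 RPKM in WT (median 12.8, mean 13.3 ± 1.25) and between 7.41 and 9.59 RPKM in R6/1 (median 8.36, mean 8.54 ± 0.774). Its log2 change was -0.61 (SE 0.058, limma adjusted p 6.1e-08), with no overlap. Cyp51, the lanosterol demethylase (chr5:4081145-4104746, minus strand), stood between 10.9 and 16.9 RPKM in WT (median 13.1, mean 13.5 ± 1.96) and between 6.39 and 10.4 RPKM in R6/1 (median 9.06, mean 8.86 ± 1.15). The R6/1 libraries were again all below the WT libraries, and Cyp51 fell by 0.58 (SE 0.086, limma adjusted p 1.47e-05).

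The remaining enzymes of this stretch changed less. Nsdhl, the dehydrogenase that acts with Msmo1 at C-4 (chrX:70163896-70203853, plus strand), ranged from 8.72 to 11.0 RPKM in WT (median 9.46, mean 9.73 ± 0.844) and from 5.74 to 8.55 RPKM in R6/1 (median 7.30, mean 7.36 ± 0.896). It fell by 0.39 without overlap (SE 0.066, limma adjusted p 7.54e-05). Tm7sf2, a sterol C-14 reductase, ranged from 5.48 to 8.63 RPKM in WT (median 7.28, mean 7.12 ± 1.05) and from 4.52 to 7.32 RPKM in R6/1 (median 5.41, mean 5.51 ± 0.82), with a log2 change of -0.34 (SE 0.087, limma adjusted p 0.00286). Its exons overlap those of 1110014N23Rik on the same strand over 532 bases. Sc5d, the sterol desaturase before the last reduction, passed only narrowly, from 16.9 to 27.6 RPKM in WT (median 20.9, mean 21.6 ± 4.71) to between 15.3 and 19.7 RPKM in R6/1 (median 18.5, mean 17.8 ± 1.62). WT replicates 1, 2 and 6 held 26.7 to 27.6 RPKM of Sc5d, and WT replicates 4, 7, 8 and 9 held 16.9 to 17.4 RPKM, within the R6/1 range. The log2 change of Sc5d was -0.25 (SE 0.101, limma adjusted p 0.0499); the call was lost in 21 of 32 alternatives, and without the libraries richer in choroid plexus markers the value was -0.02 (limma adjusted p 0.930). Leaving out WT replicate 1, 2, 3, 5 or 6 or R6/1 replicate 2, 3, 4, 5, 7, 8 or 9 each ended it, at limma adjusted p between 0.0540 and 0.0989.
Ebp, the sterol isomerase, did not pass, at 6.88 to 8.93 RPKM in WT and 6.01 to 8.55 RPKM in R6/1 (log2 change -0.16, 95% interval -0.31 to -0.01, limma adjusted p 0.0655). Without WT replicate 6 or 7 or R6/1 replicate 1, 2 or 5 it passed, at limma adjusted p between 0.0204 and 0.0444. Hsd17b7, the ketoreductase of C-4 demethylation, did not pass either, at 4.97 to 7.29 RPKM in WT and 4.84 to 6.49 RPKM in R6/1 (log2 change -0.09, 95% interval -0.22 to 0.05, limma adjusted p 0.283).

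**Figure D2:**
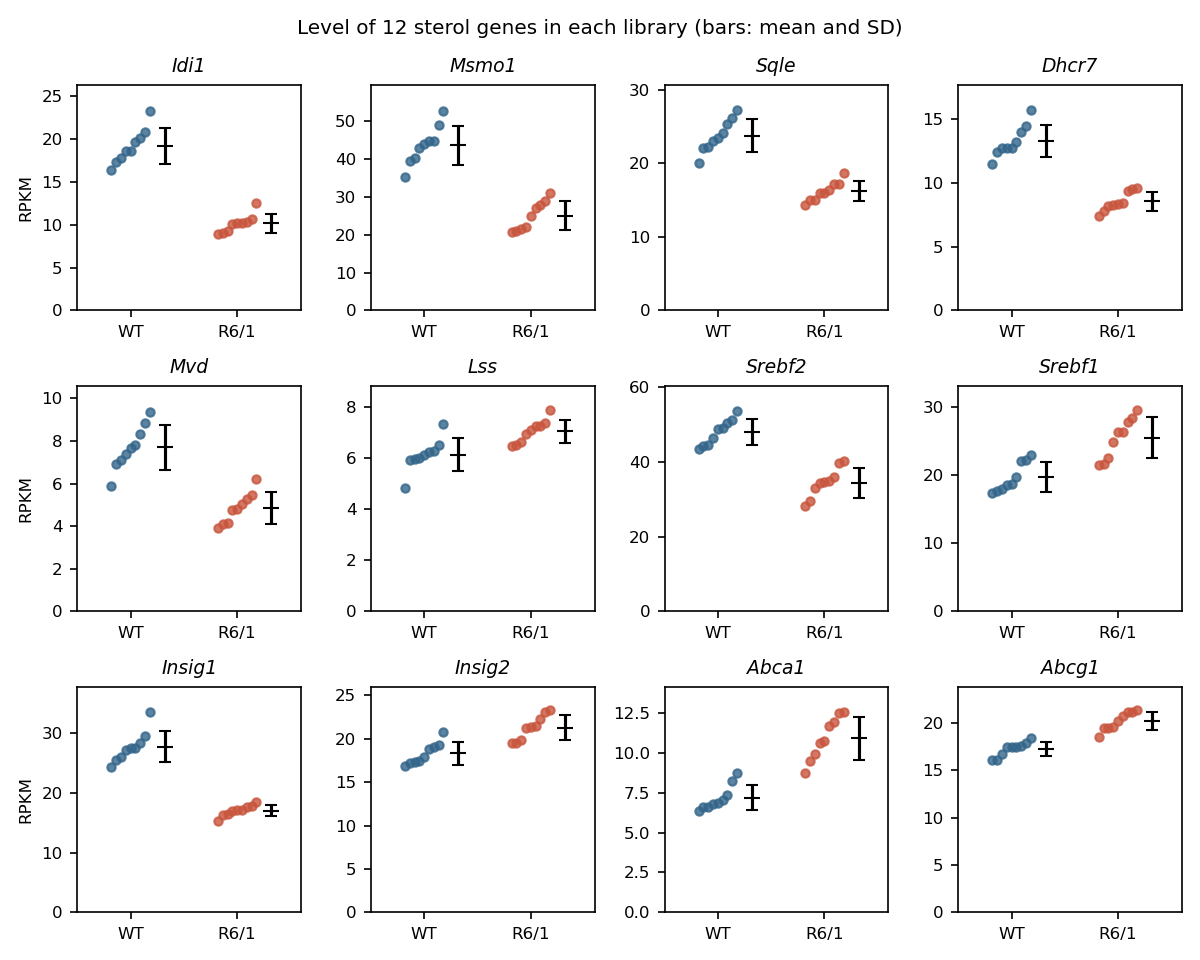
RPKM (y axis, from 0) of 12 sterol genes in each of the 9 WT (blue) and 9 R6/1 (red) libraries, with points spread sideways by rank and the mean and SD beside them. Idi1, Msmo1, Sqle, Dhcr7, Srebf2 and Insig1 are lower in every R6/1 library than in any WT library, Abcg1 is higher in every one, and Lss, Insig2, Srebf1, Abca1 and Mvd overlap.

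The genes of SREBP control split by paralogue. Srebf2, which encodes SREBP-2 (chr15:81977696-82035806, plus strand), ranged from 43.3 to 53.6 RPKM in WT (median 48.7, mean 47.9 ± 3.53) and from 28.2 to 40.1 RPKM in R6/1 (median 34.7, mean 34.4 ± 4.00). It was lower in every R6/1 library than in any WT library, by 0.48 on the log2 scale (SE 0.062, limma adjusted p 3.2e-06). Srebf1, which encodes the SREBP-1 forms that mainly drive fatty acid genes (chr11:60012591-60036083, minus strand), moved the other way, from between 17.3 and 23.0 RPKM in WT (median 18.7, mean 19.7 ± 2.17) to between 21.5 and 29.6 RPKM in R6/1 (median 26.4, mean 25.5 ± 3.00). In 6 of 9 R6/1 libraries Srebf1 was above the WT maximum, and its log2 change was 0.36 (SE 0.071, limma adjusted p 0.000293). The ratio of Srebf2 to Srebf1 within a library was 1.88 to 2.82 in WT and 1.25 to 1.54 in R6/1.

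Insig1 and Insig2 encode the paired retention proteins of the endoplasmic reticulum, of which Insig1 is itself an SREBP target. Insig1 (chr5:28397952-28405201, plus strand) stood between 24.4 and 33.5 RPKM in WT (median 27.5, mean 27.8 ± 2.64) and between 15.4 and 18.5 RPKM in R6/1 (median 17.1, mean 17.1 ± 0.929). The genotypes did not overlap, and Insig1 fell by 0.68 on the log2 scale (SE 0.050, limma adjusted p 1.31e-09). Insig2 (chr1:123200930-123229166, minus strand) stood between 16.8 and 20.8 RPKM in WT (median 17.9, mean 18.3 ± 1.29) and between 19.5 and 23.3 RPKM in R6/1 (median 21.3, mean 21.3 ± 1.45), and rose by 0.21 on the log2 scale (SE 0.046, limma adjusted p 0.000704). Insig1 exceeded Insig2 in 9 of 9 WT libraries, at a ratio of 1.23 to 1.93, and in 0 of 9 R6/1 libraries, at a ratio of 0.666 to 0.904. Both ratios were computed after the levels had been seen and are given without a test.

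The carrier and the proteases of SREBP changed little. Scap ranged from 24.4 to 28.7 RPKM in WT (median 26.3, mean 26.1 ± 1.50) and from 26.7 to 32.7 RPKM in R6/1 (median 28.9, mean 29.3 ± 1.85), a log2 change of 0.16 (SE 0.041, limma adjusted p 0.00253). Mbtps1, the site-1 protease that makes the first cut of SREBP in the Golgi, ranged from 20.5 to 23.9 RPKM in WT (median 21.3, mean 21.9 ± 1.21) and from 23.0 to 25.9 RPKM in R6/1 (median 23.5, mean 23.9 ± 0.985), a log2 change of 0.13 (SE 0.035, limma adjusted p 0.00575). Mbtps2, the site-2 protease that releases the factor from the membrane, did not pass, at 8.12 to 9.82 RPKM in WT and 8.29 to 10.8 RPKM in R6/1 (log2 change 0.10, 95% interval -0.01 to 0.21, limma adjusted p 0.119). It passed when libraries were scaled to their own totals (0.17, limma adjusted p 0.00521) and without R6/1 replicate 2 (0.13, limma adjusted p 0.0425). Exons of Scap and Srebf1 overlap 5830462I19Rik and Rai1 on the opposite strand, and those of Mbtps2 overlap Yy2 on the same strand.

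Efflux transporters were higher and the intracellular carrier and the turnover enzyme were lower. Abca1, which loads cholesterol onto lipid-poor apolipoproteins (chr4:53043659-53172767, minus strand), ranged from 6.36 to 8.76 RPKM in WT (median 6.85, mean 7.19 ± 0.808) and from 8.72 to 12.6 RPKM in R6/1 (median 10.7, mean 10.9 ± 1.35). In 8 of 9 R6/1 libraries it exceeded the WT maximum, and its log2 change of 0.57 (SE 0.072, limma adjusted p 2.43e-06), a change of 48.0%, was the largest increase among these genes. Abcg1, a transporter that passes cholesterol to lipidated particles (chr17:31194643-31252722, plus strand), stood between 16.1 and 18.4 RPKM in WT (median 17.5, mean 17.2 ± 0.780) and between 18.5 and 21.4 RPKM in R6/1 (median 20.2, mean 20.2 ± 0.981). Here no libraries overlapped, although the rise was only 0.22 on the log2 scale (SE 0.035, limma adjusted p 3.35e-05). Stard4, a soluble carrier of sterol between membranes and an SREBP target, ranged from 5.10 to 8.26 RPKM in WT (median 6.85, mean 6.88 ± 0.982) and from 3.14 to 5.81 RPKM in R6/1 (median 4.70, mean 4.53 ± 0.924). It was below the WT minimum in 6 of 9 R6/1 libraries and fell by 0.56 on the log2 scale (SE 0.104, limma adjusted p 0.000162). Cyp46a1, the neuronal hydroxylase that makes 24S-hydroxycholesterol, the form in which the brain exports most of its cholesterol (chr12:109572587-109600441, plus strand), had the highest level of the 30 genes. It ranged from 57.0 to 68.4 RPKM in WT (median 62.4, mean 62.3 ± 4.03) and from 45.2 to 59.6 RPKM in R6/1 (median 49.2, mean 50.1 ± 4.66), and fell by 0.31 on the log2 scale (SE 0.051, limma adjusted p 3.96e-05).

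Further lists of sterol metabolism gave genes in both directions. Of 10 further genes of sterol synthesis and SREBP partners, 1 was lower, 2 were higher and 7 did not pass, with a median log2 change of 0.04. Tmem97, an SREBP-regulated sterol-binding protein, was the one that fell, from 7.86 ± 0.788 to 5.28 ± 0.543 RPKM (SD, n = 9 each) without overlap (log2 change -0.53, limma adjusted p 8.62e-07). Lbr, a lamin B receptor of the inner nuclear membrane that also has the C-14 reductase activity of Tm7sf2, stood at 4.70 ± 0.435 and 5.14 ± 0.311 RPKM (log2 change 0.12, limma adjusted p 0.0635). Lbr passed without WT replicate 5 (0.0237), WT replicate 6 (0.0366) or R6/1 replicate 5 (0.0377), and with libraries scaled to their own totals. The count of higher genes on this list was 5 in place of 2 under that scaling, under quantile normalization and without R6/1 replicate 5, and 4 without WT replicate 5 or with library weights.

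Of 17 genes of sterol transport, oxidation and LXR signalling 16 were tested, with 5 lower, 4 higher, 7 not passing and a median of -0.03. Abca2, a lysosomal lipid transporter abundant in oligodendrocytes and neurons, rose from 42.2 ± 1.69 to 56.9 ± 6.07 RPKM without overlap (log2 change 0.42, limma adjusted p 2.73e-06). Mylip, the LXR-induced ligase that degrades lipoprotein receptors, fell from 7.27 ± 0.598 to 5.14 ± 0.694 RPKM without overlap (log2 change -0.47, limma adjusted p 1.22e-05). LXR targets thus moved in both directions, with Abca1 and Abcg1 higher and Mylip lower.

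Fatty acid genes of the SREBP-1 arm moved in both directions, with 8 of 13 lower, 2 higher, 3 not passing and a median of -0.21, while Srebf1 itself was higher. The 2 higher genes were Acly (log2 change 0.22, limma adjusted p 1.28e-05) and Acaca (0.16, limma adjusted p 0.00432). Those not passing were Fasn at 0.00, Me1 at 0.08 and Aacs at 0.06. Fads1, a desaturase of polyunsaturated fatty acids, fell from 79.4 ± 4.93 to 56.8 ± 6.19 RPKM without overlap (log2 change -0.48, limma adjusted p 8.05e-07), and Scd2, the main stearoyl-CoA desaturase of brain, from 384 ± 33.6 to 319 ± 35.8 RPKM (log2 change -0.27, limma adjusted p 0.00137). In the smaller fit without the libraries richer in choroid plexus markers, 3 of the 13 were lower and Scd2 did not pass (-0.18, limma adjusted p 0.151). The isoprenoid branch spends farnesyl and geranylgeranyl diphosphate on proteins, dolichol and ubiquinone. Its list, which also holds enzymes that process proteins after prenylation, went the other way from the sterol enzymes. Of its 13 genes 8 were higher, 1 was lower and 4 did not pass, with a median of 0.18. Coq2, the prenyltransferase of ubiquinone synthesis and the gene of that list with the highest mean in WT but not in R6/1, was the one that fell, from 32.4 ± 4.91 to 22.8 ± 4.01 RPKM (log2 change -0.50, limma adjusted p 0.00053). Without the libraries richer in choroid plexus markers 4 isoprenoid genes were higher.

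**Figure D3:**
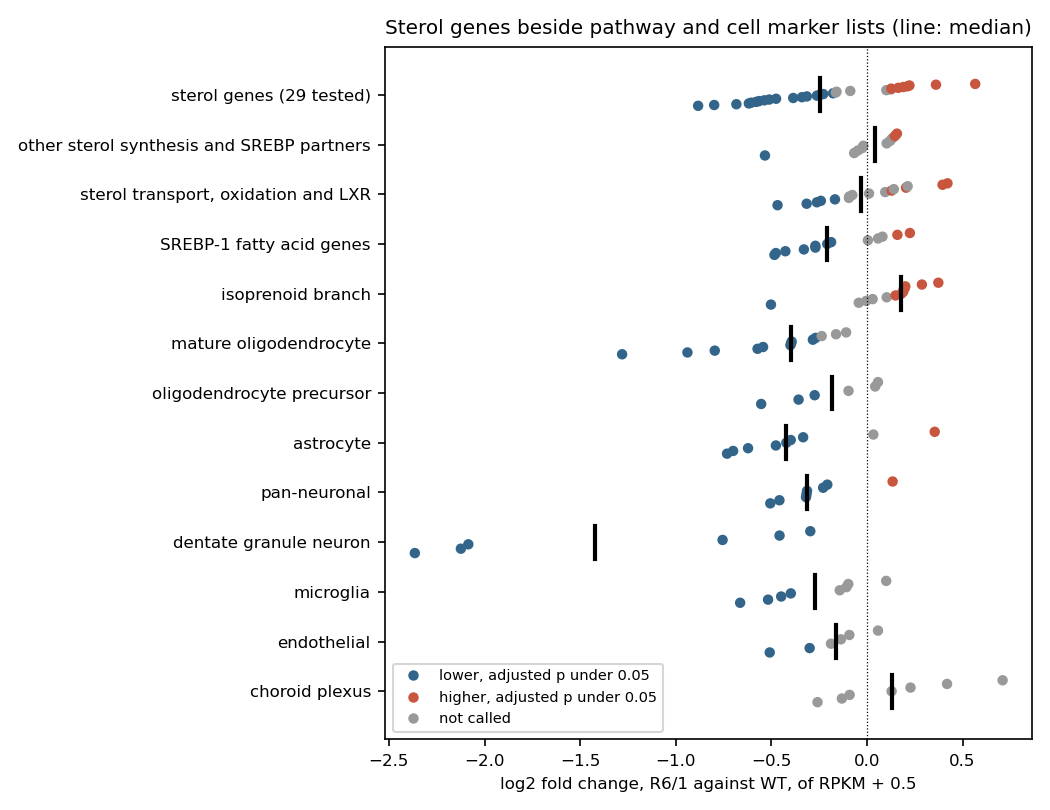
Log2 fold change of RPKM + 0.5 in R6/1 against WT (x axis) for the 29 tested sterol genes and for each gene of 4 pathway and 8 cell marker lists (rows), coloured by call, with a line at each list's median. The sterol genes have a median of -0.25, beside -0.40 for mature oligodendrocyte, -0.42 for astrocyte and 0.18 for isoprenoid genes.

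Markers of the cells that make cholesterol were lower in the same libraries. Of 13 mature oligodendrocyte markers 10 were lower and none higher (median log2 change -0.40), and their summed level ranged from 1181 to 1513 RPKM in WT and from 732 to 1258 RPKM in R6/1, with none at 0 in any library. Opalin, a marker of myelinating cells, went from 24.4 ± 2.48 to 10.7 ± 5.01 RPKM (log2 change -1.28, limma adjusted p 2.97e-05). Of 9 astrocyte markers 7 were lower and 1 higher (median -0.42), with summed levels of 1168 to 1540 RPKM in WT and 946 to 1208 RPKM in R6/1. Slc1a2, the glial glutamate transporter, went from 509 ± 46.8 to 307 ± 33.8 RPKM (log2 change -0.73, limma adjusted p 2.63e-08). Without the libraries richer in choroid plexus markers 4 astrocyte markers were lower. The part of these shifts in the lower level of the sterol enzymes was not tested.

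Enzyme and oligodendrocyte marker levels were then set side by side in each library. The 17 tested enzymes summed to between 243 and 309 RPKM in WT and between 187 and 219 RPKM in R6/1, so that the genotypes did not overlap. R6/1 replicates 5 and 2 had a mean log2(RPKM + 0.5) of 5.66 and 5.61 over the oligodendrocyte markers, within the WT range of 5.49 to 5.82. Their mean over the 17 enzymes was 3.56 and 3.52, below the WT minimum of 3.69, and Idi1 stood there at 12.5 and 10.7 RPKM, below its WT minimum of 16.4 RPKM. Over the astrocyte markers their means were 6.49 and 6.10, beside a WT range of 6.33 to 6.77. Among the R6/1 libraries these 2 were also high in the enzymes, replicate 5 the highest at 219 RPKM in sum and replicate 2 the third at 212 RPKM. Replicates 7 and 4 were the lowest in the enzymes, at 187 and 189 RPKM, with oligodendrocyte means of 5.04 and 4.81. These libraries were singled out by their levels, and the part of any cell type in the enzyme levels was not tested.

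**Figure D4:**
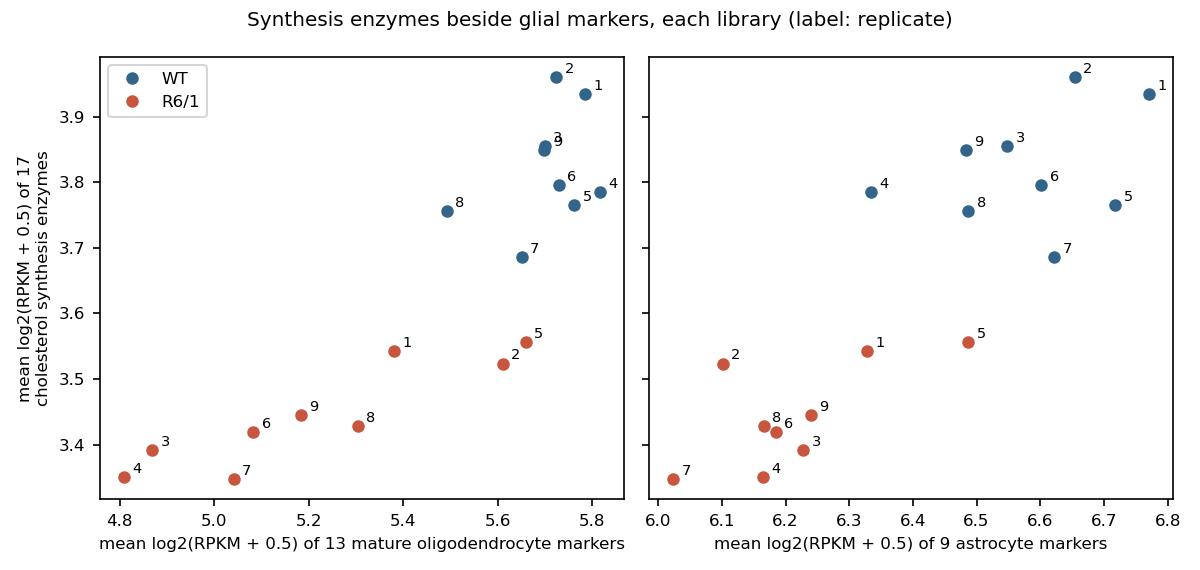
Mean log2(RPKM + 0.5) of 17 synthesis enzymes (y axis) against that of 13 mature oligodendrocyte markers (left, x axis) and of 9 astrocyte markers (right, x axis), 1 point per library, numbered by replicate, WT blue and R6/1 red. All R6/1 libraries lie below all WT libraries on the y axis. R6/1 replicates 5, 1 and 2 are the highest R6/1 libraries on it, with 5 and 2 within the WT range of oligodendrocyte markers, and R6/1 replicates 7 and 4 are the lowest.

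Neurons express sterol genes too, Cyp46a1 foremost, and neuronal markers were also lower. Of 8 markers listed as pan-neuronal, 7 were lower and 1 higher, with a median of -0.31. This list also holds Slc17a7, a gene of excitatory neurons. The 8 markers summed to between 2636 and 3205 RPKM in WT and between 2189 and 2390 RPKM in R6/1. Snap25, a synaptic SNARE protein, fell by 0.51 on the log2 scale (limma adjusted p 8.48e-09). All 6 dentate granule markers were lower, with a median of -1.42 and Dsp, a desmosomal protein of these cells, at -2.36 (limma adjusted p 1.55e-09). Among 6 oligodendrocyte precursor markers 3 were lower and 3 did not pass, led by Gpr17 at -0.55 (limma adjusted p 0.000417), and none was lower without the libraries richer in choroid plexus markers. Microglia markers gave 4 of 8 lower, endothelial markers 2 of 6 lower and choroid plexus markers 0 of 7 called, and none of these 4 lists had a marker called higher. The endothelial count was 1 without any single one of WT replicates 2, 3, 5, 7, 8 and 9 or of the R6/1 replicates other than 5, and 1 in the authors' deposited table. The part of these lists in the sterol values was not tested either.

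The sterol genes were also placed against the lamin B1 domains, stretches of chromatin at the nuclear lamina. Of the 29 genes placed on build NCBIM37, the start of 2 lay in a WT domain and of 0 in an R6/1 domain, beside 13.1% and 8.09% of the 12430 tested genes placed, so most tested genes lay outside the domains as well. The 2 genes are on the X chromosome. Nsdhl lay in a WT domain of 67.6 Mb, from 52540001 to 120139000. Mbtps2 lay in a WT domain of 5.25 Mb, from 150553001 to 155807000. The nearest R6/1 domain was 2.82 Mb from the start of Nsdhl and 0.228 Mb from that of Mbtps2. Nsdhl fell and Mbtps2 did not pass the RNA test. The counts were the same when any overlap of the gene body counted and when starts within 100 kb of a domain counted, and with 1 domain list per genotype the difference has no replicate check.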

How the data were processed

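RNA-seq of hippocampus (9 WT and 9 R6/1 libraries, RNA integrity 9 to 10, stranded mRNA kit, per the labels) was analysed from the deposited table of RPKM values, which the authors made with depth scaling. The submitters' processing notes name TopHat, DESeq2, Bowtie and the build mm9, without versions or roles, and the counter, annotation and strand setting are not given in the sources used here. Rescaled per gene to the authors' mean normalized count, the RPKM values were whole multiples of 1 read for at least 99.8% of values up to 1000 reads (tolerance 0.05 of a read), which gave the depths. The authors' deposited table of the comparison holds mean normalized counts (a depth-scaled signal per gene over all libraries), log2 fold changes with errors, a test score, p-values and adjusted p-values, and 6113 genes have no adjusted p-value there. The authors' domain lists (per the file names, of the EDD caller on lamin B1 and input) carry 1 score per domain, which was not used. Unused columns of per-sample values numbered 0.

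Each gene was tested with limma 3.58.1 in R 4.3.3 (lmFit and eBayes with trend, two-sided) on log2(RPKM + 0.5), leaving out genes whose mean was below 0.5 RPKM, with Benjamini-Hochberg adjustment over all 14446 genes and a threshold of 0.05. Fold changes are on that scale and understate the change of low genes. The test was checked on simulated data. The replicates are labelled as independent, and no pair of libraries agreed within counting noise. Gene positions are from GENCODE on NCBIM37 and promoter windows from RefSeq. The members and lists were chosen with earlier results of these data known, so counts are read beside those of all genes. Named are all 30 members and, of each list, the called gene with the largest change, the most abundant gene, and Lbr, except 2 list genes that are not reported here; Slc17a7 and Prox1 were added as a tissue check. Same-numbered libraries were checked for pairing. Alternatives were the pseudocount (0.1, 1), the filter (none, 2 RPKM), median centring, quantile normalization, own totals, a replicate block, no trend, library weights, a covariate for Xist, the authors' table and leaving out each library; 2 sets of libraries were left out as alternatives chosen after seeing the data.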

Additional observations from a re-analysis of the deposited data

Results flagged for a closer look

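In each group of 9 libraries, a library was set aside for a closer look when its gap to the nearest other library, over the range of the group, exceeded Dixon's 95% critical value. Of 96 groups examined, 5 had such a library, where chance gives about 4.8. Among the sterol genes the single case was Idi1 in R6/1 replicate 5, at 12.5 RPKM (518 reads), with the next highest R6/1 library at 10.7 RPKM. Leaving that library out moved the log2 fold change of Idi1 from -0.88 to -0.92.

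The other cases were markers of cell types. Ctss, a lysosomal protease of microglia, stood at 78.7 RPKM in R6/1 replicate 5, with the next library at 59.4 RPKM, and its log2 fold change was 0.04 without it and 0.10 with it, neither of which passed the test. Tek, an endothelial receptor, stood at 4.22 RPKM in R6/1 replicate 5 (next 3.10 RPKM) and at 2.36 RPKM in WT replicate 1 (next 4.28 RPKM). Its log2 fold change was -0.57 without the former, -0.60 without the latter and -0.51 with all libraries. Dsp stood at 0.318 RPKM in R6/1 replicate 2 (next 0.912 RPKM, 51 reads in the lower library), and without it the log2 fold change was -2.25 in place of -2.36.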

How the results depend on the processing

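Of 928 values (29 sterol genes under 32 alternatives), 881 kept their direction and their side of the threshold, 24 were no longer called, 22 became called and 1 changed sign, and 22 of the 29 genes kept their call throughout, the others being Ebp, Ggps1, Lss, Mbtps2, Mvk, Pmvk and Sc5d. The change of sign was Hsd17b7, never called, at 0.043 without the libraries richer in choroid plexus markers. Lower sterol genes numbered 16 to 19 and higher ones 7 to 8 when each library was left out in turn, and 15 to 19 and 6 to 9 under the other settings. Over all genes, leaving out each library gave 3237 to 3504 lower and 3425 to 3671 higher. Without the 9 libraries richer in choroid plexus markers 2357 genes were higher in place of 3586; fewer libraries entered that fit. The same setting left 3 lower and 2 higher genes on the sterol transport list, 1 higher SREBP partner and 2 lower microglia markers. Scaling each library to its own total moved the median log2 fold change of all genes to 0.07, and 16 sterol genes were then lower and 9 higher.

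With the replicate number as a block, 19 sterol genes were lower and 7 higher, since Mvk (limma adjusted p 0.0424) and Ebp (0.0315) passed, and 3467 genes were lower and 3666 higher over all genes. Same-numbered libraries correlated between -0.05 and 0.24 in their deviations from the group means, and 2 of 9 numbers correlated best with their own, so the numbers were not taken as pairs. The planned edgeR test on recovered reads was not run, because the deposited unit is RPKM.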
